A study of Mus musculus with 39 samples.

Results

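The collagen chain genes were followed through mouse gubernaculum and testis of 3 genotypes. They were taken as every gene whose symbol has the form Col, a number, a and a number in the first of the 2 deposited count tables, and all 44 of them were also found, by Ensembl identifier, in the second table. They are 44 of the 21561 genes with an identifier in both tables. The set holds 11 fibrillar chains (types I, II, III, V, XI, XXIV and XXVII), 6 basement membrane chains (type IV), 6 beaded filament chains (type VI), 9 fibril-associated chains of the class called FACIT (types IX, XII, XIV, XVI, XIX, XX and XXII), 2 multiplexins (XV and XVIII), 3 short-chain network formers (VIII and X), 1 anchoring fibril chain (VII), 4 transmembrane chains (XIII, XVII, XXIII and XXV) and 2 others (XXVI and XXVIII).

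All animals were male C57BL/6J mice, and bulk RNA was sequenced from 39 libraries in 13 groups of 3. Gubernaculum was taken at postnatal day 8 (P8) from each genotype, that is wild type (WT), INSL3 knock-in (INSL3-KI) and INSL3 knockout (INSL3-KO), and at P23 without the knockout. Testis was taken at P8 and P23 from each genotype and at P40 without the knockout. In INSL3-KI mice, homozygous for the allele, the coding sequence of minke whale INSL3 replaces the mouse gene at its own locus. INSL3-KO mice are labelled as lacking the mouse gene. INSL3 is the Leydig cell hormone that drives growth of the gubernaculum, the ligament that pulls the testis towards the scrotum, and testes stay in the abdomen without it. The replicates are named as biological, but whether animals were pooled is not given in the sources used here, so p-values measure only the spread between these libraries.

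Collagens are trimers whose chains wind around each other through repeats of glycine and 2 other residues. Types I, III and V build the fibrils that bear tension in connective tissue. Type IV chains form the network under epithelia, around muscle fibres and around blood vessels, in the testis also around the seminiferous tubules, and its chains are built in fixed sets: α1 with α2, α3 with α4 and α5, and α5 with α6. FACIT chains sit on the surface of fibrils, type VI forms fine beaded filaments near cells, and the multiplexins XV and XVIII belong to basement membrane zones.

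The repeat that all members share can be read in their transcripts. Glycine is coded by GG and any base, so the bases GG recur at every 9th base. The longest unbroken run of such repeats held 10 to 344 repeats over the 44 members, with a median of 56.5, against a median of 3 over 21857 other coding genes. A run of 20 or more was present in 40 of the 44 members and in 20 other genes, among them Adipoq and Colq. The fibrillar chains of types I, II, III, V and XI held 337 to 344 repeats, Col24a1 216 and Col27a1 217, and Col15a1, a multiplexin with an interrupted helix, only 10. The first 10 repeats of the runs of Col1a1 and Col3a1, 2 of the 3 fibrillar chains with the highest levels per length in WT gubernaculum, are shown to make the repeat visible. They are read 5′ to 3′ from transcripts Col1a1-201 (bases 647 to 736) and Col3a1-201 (bases 700 to 789), with the GG of each glycine codon in capitals:
Col1a1: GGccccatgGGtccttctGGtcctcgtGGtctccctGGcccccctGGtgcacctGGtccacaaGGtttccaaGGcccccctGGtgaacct
Col3a1: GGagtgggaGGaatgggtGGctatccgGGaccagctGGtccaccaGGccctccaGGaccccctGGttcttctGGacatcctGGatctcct

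The 6 type IV genes lie as 3 head-to-head pairs, each pair read outward from a shared start region (GRCm38, the build named in the submitters' processing notes). Col4a1 and Col4a2 lie on chromosome 8, where they overlap by 22 bases, and reads there cannot be assigned without strand. Col4a4 (chr1:82448423-82586849, minus strand) and Col4a3 (chr1:82586921-82722059, plus strand) are 71 bases apart. Col4a6 (chrX:141165403-141474076, minus strand) and Col4a5 (chrX:141475385-141689234, plus strand) are 1308 bases apart. The start regions of these last pairs are shown because the 4 genes moved together in the P8 gubernaculum of both mutants, as described after the fibrillar chains. Sequences come from RefSeq (GRCm38.p6), whose table held 35 of the 44 members. Searched on both strands were GGGCGG, the core of the GC box, then CCAAT, the core of the box of that name, and TATAAA, the TATA box. No match overlapped another, and matches are in capitals:
Col4a4 and Col4a3, chr1:82586850-82586920, minus strand: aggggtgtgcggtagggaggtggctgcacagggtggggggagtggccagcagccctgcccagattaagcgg
Col4a6, chrX:141474077-141474326, minus strand: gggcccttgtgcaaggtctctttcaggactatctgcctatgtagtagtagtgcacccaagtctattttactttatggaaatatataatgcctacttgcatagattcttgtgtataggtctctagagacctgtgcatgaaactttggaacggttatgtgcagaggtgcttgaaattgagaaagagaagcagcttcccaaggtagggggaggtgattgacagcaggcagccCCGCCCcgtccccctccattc
Col4a5, chrX:141475169-141475384, plus strand: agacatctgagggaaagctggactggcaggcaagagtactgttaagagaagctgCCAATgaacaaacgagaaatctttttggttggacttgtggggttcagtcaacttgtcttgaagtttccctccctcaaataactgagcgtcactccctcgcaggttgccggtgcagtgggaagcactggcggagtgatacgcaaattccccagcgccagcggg

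The 71 bases between Col4a4 and Col4a3 held none of the 3 motifs. In windows of that length directly before 32851 gene starts, GGGCGG was found in 20.7%, CCAAT in 13.3% and TATAAA in 4.41%. The 250 bases before Col4a6 held 1 GGGCGG, on the opposite strand, as did 32.7% of windows of that length, and the 216 bases before Col4a5 held 1 CCAAT, as did 30.8% of windows of theirs.

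Each library held 29861447 to 45260372 counts. Levels are given as CPM, a gene's counts relative to the TMM-scaled size of its library within a tissue, and every tested difference is a log2 fold change with its SE from edgeR's quasi-likelihood test, called when the gene changed 2-fold or more with a Benjamini-Hochberg adjusted p, over all genes, under 0.01. INSL3-KO libraries and WT P23 testis are in the second count table and all others in the first, so table and genotype cannot be told apart in P8 comparisons with INSL3-KO and in the P23 testis comparison of INSL3-KI with WT. Insl3 itself read 63.4 to 1029 CPM over the WT testis libraries, at most 12.5 in INSL3-KI testis, 13.4 to 17.8 in INSL3-KO testis at P8 and at most 0.12 at P23. The P8 testis libraries labelled INSL3-KO thus kept Insl3 reads, which goes against a full loss of its RNA there. The source of these reads is not known, and P8 testis directions for INSL3-KO rest on the label. Some libraries stood apart. INSL3-KI gubernaculum replicate 2 at P23 had a summed skeletal muscle marker level of 134 CPM against 1726 and 1500 in the other two and an adipocyte level of 55735 against 25084 and 2002. Over the same 3 libraries epithelial and epididymal markers summed to 9.09 to 9097 CPM, endothelial to 360 to 3339 and smooth muscle to 2099 to 15742. In P23 WT gubernaculum these sums were 124 to 1392, 625 to 920 and 6566 to 9416. WT testis replicate 3 at P8 had an adipocyte level of 1174 against 243 and 316.

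The collagen share of all counts varied with genotype, tissue and age. The 2 mutants overlapped wherever both were sequenced, and WT gubernaculum overlapped between P8 and P23. In P8 gubernaculum the members held 5.20 to 5.85% of the counts in WT, 2.97 to 4.14% in INSL3-KI and 3.41 to 3.60% in INSL3-KO, with no overlap between WT and either mutant. At P23 they held 1.74 to 5.28% in WT and 1.06 to 2.41% in INSL3-KI, with WT replicate 1 inside the INSL3-KI range. In testis the WT share was 1.40 to 3.50% at P8 and 0.0780 to 0.0833% at P23. The direction of the mutants turned with age: at P8 both mutants lay below WT (0.701 to 1.10% in INSL3-KI, 0.972 to 1.01% in INSL3-KO), and at P23 both, and at P40 INSL3-KI, lay above it (0.280 to 0.380% in INSL3-KI and 0.300 to 0.302% in INSL3-KO at P23, and 0.230 to 0.419% in INSL3-KI against 0.0922 to 0.148% in WT at P40).

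**Figure D1:**
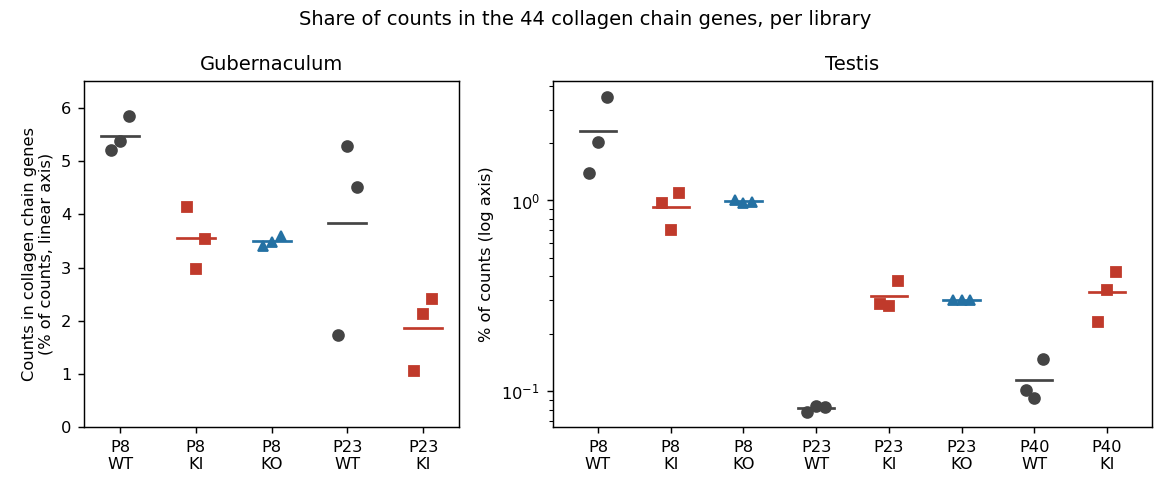
Counts in the 44 collagen chain genes as a percentage of the counts of each library (points; bars are means of 3 libraries), for gubernaculum on a linear axis and testis on a log axis. Both mutants lie below WT at P8 in both tissues. In testis both lie above WT at P23, and INSL3-KI, the only mutant sequenced then, at P40, where the WT share is near 0.1%.

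In WT gubernaculum at P8 the fibrillar chains led. Per length, as FPKM, Col3a1 stood at 3042 ± 84.0 (SD, n = 3), above Col1a1 at 1702 ± 93.2 and Col1a2 at 1680 ± 75.9, and these last 2 did not differ beyond their spread. Next came the type VI chains Col6a2 (539 ± 35.9) and Col6a1 (461 ± 29.8) and the type IV chain Col4a1 (282 ± 56.1). Of the collagen counts, 76.1 to 79.8% were fibrillar and 4.85 to 6.42% type IV. In INSL3-KI the fibrillar share was 66.8 to 71.6% and the type IV share 11.3 to 16.1%, neither overlapping WT. In INSL3-KO these were 76.4 to 77.0% and 8.38 to 8.54%, so only the type IV share lay apart from WT.

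Fibrillar chains were lower and a small group of type IV, VI and IX chains higher in INSL3-KI than in WT gubernaculum at P8. Of 43 members tested, 18 fell and 9 rose (41.9% and 20.9%), where 9.7% of all genes tested fell and 14.4% rose. The median difference over the members was -0.91 against 0.02 over all genes. Among the 11 fibrillar chains, 8 fell, none rose and every one had a negative difference.

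Col3a1, which encodes the chain of the thin fibrils of soft tissue, read 19497, 19170.2 and 20532 CPM in WT, 9819, 7053 and 8063 in INSL3-KI and 12267, 12131 and 13031 in INSL3-KO. The 3 genotypes did not overlap, and INSL3-KI was lowest. The difference from WT was -1.21 ± 0.17 (adjusted p = 0.000603) in INSL3-KI. Col1a1 and Col1a2, the chains of type I collagen, had differences of -0.98 ± 0.19 (adjusted p = 0.00288) and -0.91 ± 0.19 (adjusted p = 0.00379), past the p threshold but under the fold threshold. Col1a1 read 11145, 11574 and 12584 CPM in WT and 7048, 4535 and 5896 in INSL3-KI, again without overlap. The type V chains, which regulate fibril diameter, fell further. Col5a2 read 1423, 1343 and 1578 CPM in WT and 466, 293 and 383 in INSL3-KI, a difference of -1.89 ± 0.18 (adjusted p = 6.27e-05), Col5a1 had -1.68 ± 0.19 (adjusted p = 0.000166) and Col5a3 -1.36 ± 0.30 (adjusted p = 0.00513). The minor fibrillar chains Col24a1 (-3.06 ± 0.28, adjusted p = 5.55e-05), Col11a2 (-2.17 ± 0.38, adjusted p = 0.00163), Col11a1 (-1.16 ± 0.25, adjusted p = 0.00482) and Col27a1 (-1.01 ± 0.15, adjusted p = 0.000731) fell as well.

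Several non-fibrillar chains fell with them. Col8a1, a short-chain network former known from blood vessels and the cornea, read 41.6, 42.1 and 69.8 CPM in WT and only 3.34, 2.03 and 3.53 in INSL3-KI, a difference of -4.07 ± 0.29 (adjusted p = 1.4e-05) that was the largest fall of any member in this comparison, and its partner Col8a2 had -2.14 ± 0.12 (adjusted p = 3.56e-06). Of the type VI chains, Col6a6 had -2.42 ± 0.17 (adjusted p = 1.22e-05), Col6a2 -1.24 ± 0.18 (adjusted p = 0.00068) and Col6a3 -1.11 ± 0.19 (adjusted p = 0.00146), and Col6a1 read 2033, 2236 and 2338 against 1323, 1017 and 1226 CPM, with -0.85 ± 0.14 (adjusted p = 0.00129), under the fold threshold. The FACIT chains Col22a1, found at junctions of muscle and tendon (-2.83 ± 0.35, adjusted p = 0.000254), Col14a1 (-2.13 ± 0.28, adjusted p = 0.000371) and Col16a1 (-1.09 ± 0.20, adjusted p = 0.00247) fell, as did Col26a1 (-1.96 ± 0.13) and the transmembrane chain Col25a1 (-1.58 ± 0.30). Col15a1, at 508, 695 and 717 CPM in WT and 419.5, 286 and 386 in INSL3-KI, had -0.78 ± 0.19 (adjusted p = 0.00804), and Col18a1, the precursor of endostatin, 0.52 ± 0.18 (adjusted p = 0.0395). Neither multiplexin was called.

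Type IV chains split by pair. Col4a1 and Col4a2, the chains of nearly every basement membrane, read 1734, 2159 and 2632 and 889, 1069 and 1341 CPM in WT and 2156, 2232 and 2314 and 1086, 1101 and 1179 in INSL3-KI. Their levels overlapped, with differences of 0.08 ± 0.17 (adjusted p = 0.719) and 0.07 ± 0.16 (adjusted p = 0.742). The other 4 chains, whose networks are restricted to certain basement membranes such as those of the kidney, of some epithelia and, for α5 and α6, of smooth muscle, all rose. Col4a6 read 12.8, 20.8 and 14.04 CPM in WT, 196, 187 and 211 in INSL3-KI and 79.9, 79.8 and 81.7 in INSL3-KO. Col4a5 read 84.6, 104 and 96.98, then 426, 442 and 418, then 360.1, 359 and 392 in the same order. All WT libraries lay below all mutant libraries for both genes, and for Col4a6 the mutants were apart from each other. The differences from WT in INSL3-KI were 3.68 ± 0.19 (adjusted p = 2.72e-06) for Col4a6, 2.21 ± 0.11 (adjusted p = 2.39e-06) for Col4a5, 3.0 ± 0.34 (adjusted p = 0.000158) for Col4a3 and 2.62 ± 0.49 (adjusted p = 0.0025) for Col4a4. The counts of Col4a3 were 0.262 to 0.577 times those of Col4a4 in WT, 0.366 to 0.429 in INSL3-KI and 0.399 to 0.450 in INSL3-KO, so the ratio within this pair overlapped between genotypes while both levels rose.

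The other 5 members that rose in INSL3-KI were low in WT. Col9a2, of the type IX collagen of cartilage, read 4.26, 4.74 and 6.93 CPM in WT and 62.5, 34.1 and 63.5 in INSL3-KI (3.37 ± 0.29, adjusted p = 3.69e-05). Col6a4 read 0.790, 0.450 and 0.696 against 8.51, 5.63 and 3.12 (3.19 ± 0.44, adjusted p = 0.000512), with no overlap at levels near 1 CPM in WT. Col9a3 (2.55 ± 0.23, adjusted p = 5.3e-05), Col6a5 (1.66 ± 0.32, adjusted p = 0.0027) and Col7a1, the anchoring fibril chain under stratified epithelia (1.29 ± 0.22, adjusted p = 0.00165), were the remaining ones. Col10a1 did not pass the filter on low counts.

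**Figure D2:**
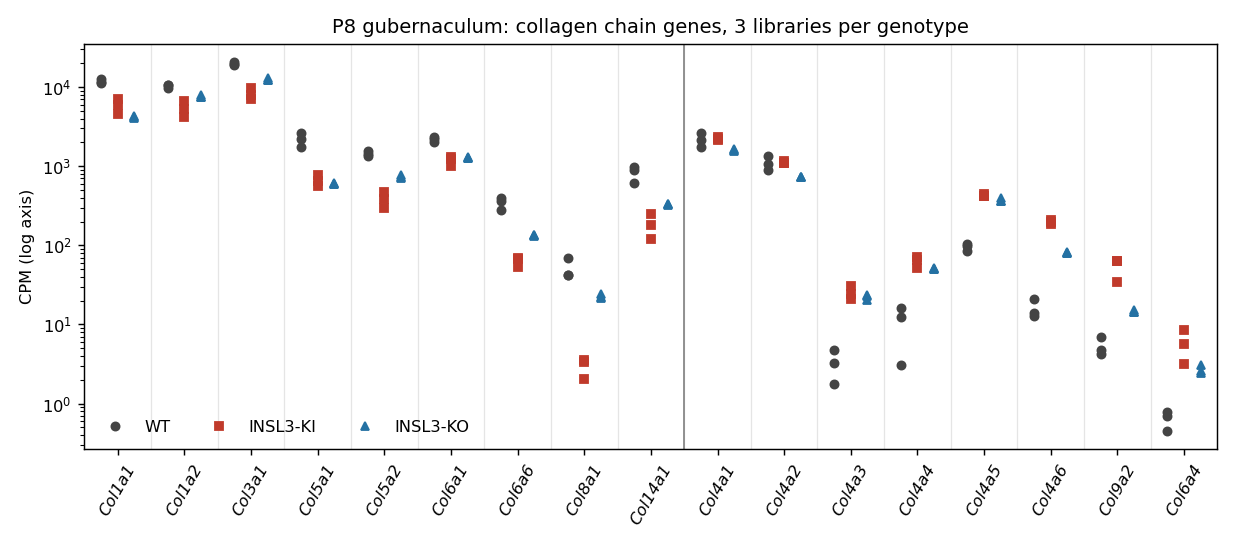
CPM of 17 collagen chain genes in P8 gubernaculum on a log axis, with 3 libraries each of WT, INSL3-KI and INSL3-KO. Left of the line, fibrillar and other chains lie below WT in both mutants, and right of it Col4a3 to Col4a6, Col9a2 and Col6a4 lie above WT in both, while Col4a1 and Col4a2 overlap between WT and INSL3-KI.

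Cell type markers moved with these differences. In INSL3-KI 19 of 20 tested skeletal muscle markers fell, with summed levels of 52296 to 57711 CPM in WT, 1319 to 2099 in INSL3-KI and 10874 to 11762 in INSL3-KO. Smooth muscle markers summed to 3805 to 4272, 16436 to 21121 and 7909.7 to 8415, with 7 of 10 rising in INSL3-KI and 6 of 10 in INSL3-KO. Epithelial and epididymal markers summed to 36.3 to 123, 1924 to 3134 and 1692 to 1775, with 9 of 9 tested rising in INSL3-KI and 8 of 8 in INSL3-KO, and of these Lcn5, Lcn8 and Crisp1 had at most 3 counts in every WT library. Tissue labelled gubernaculum thus held epithelial RNA in the mutants at levels that WT did not reach. Fibroblast markers, the cell type that makes fibrillar collagen, summed to 2106 to 2551, 1259.6 to 1592 and 1879.8 to 1955, with 4 of 12 lower and 3 higher in INSL3-KI. Adipocyte markers summed to 1849 to 2404, 2797 to 3571 and 7699 to 8287, with 8 of 10 rising in INSL3-KI and 10 of 10 in INSL3-KO. Macrophage markers summed to 368 to 504, 192 to 215 and 324 to 337, with 5 and 1 of 10 falling. Cartilage and bone markers summed to 10.9 to 13.7, 58.1 to 62.7 and 49.1 to 58.2, with Matn1 at 3 counts or fewer in every library. The part of each of these in the collagen differences was not tested. In bulk tissue fewer cells of a type and less RNA per cell cannot be told apart.

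In INSL3-KO gubernaculum at P8, 16 of 42 members tested fell and 7 rose (38.1% and 16.7%), where 15.2% of all genes fell and 15.5% rose. The 7 that rose were again Col4a3 (2.76 ± 0.33, adjusted p = 0.000259), Col4a6 (2.34 ± 0.18, adjusted p = 3.54e-05), Col4a4 (2.27 ± 0.51, adjusted p = 0.00561), Col6a5 (2.15 ± 0.16, adjusted p = 2.71e-05), Col6a4 (2.05 ± 0.32), Col4a5 (1.96 ± 0.10, adjusted p = 5.1e-06) and Col9a2 (1.46 ± 0.20). All 7 had also risen in INSL3-KI, a comparison that shares the WT libraries. The largest falls were those of Col26a1 (-3.14 ± 0.10, adjusted p = 1.14e-06), Col11a2 (-2.61 ± 0.41), Col20a1 (-2.48 ± 0.14), Col22a1 (-2.19 ± 0.28) and Col16a1 (-1.94 ± 0.076). Col1a1 read 4125, 4329 and 4137 CPM and fell, with -1.49 ± 0.07 (adjusted p = 3.87e-06), as did Col5a1 with -1.86 ± 0.15 and Col6a2 with -1.25 ± 0.077. Col1a2 (-0.46 ± 0.065), Col3a1 (-0.66 ± 0.06), Col5a2 (-0.96 ± 0.081), Col6a1 (-0.78 ± 0.074), Col6a3 (-0.67 ± 0.14), Col15a1 (-0.85 ± 0.14), Col18a1 (-0.75 ± 0.18), Col4a1 (-0.45 ± 0.15) and Col4a2 (-0.59 ± 0.14) had negative differences under the fold threshold.

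GC content moved with the INSL3-KO differences. Over all genes, the P8 gubernaculum difference changed by -0.595 (log2) per 10 percentage points of transcript GC in INSL3-KO and by -0.0428 in INSL3-KI. The members' transcripts held 45.9% GC (Col25a1) to 62.9% (Col11a2). With each library's trend over GC content and transcript length removed, an alternative chosen after the data were seen, 2 members fell in INSL3-KO (Col20a1 and Col26a1) in place of 16 and 10 rose in place of 7, all 7 first ones among them (4.76% and 23.8%, against 11.4% and 13.3% of all genes). In that fit Col5a3 and Col27a1, called lower before, had differences of 0.45 and 0.27. In INSL3-KI the same step left 16 falls and 10 rises, with 16 of the 18 and all 9 first calls kept. No fibrillar chain was called lower in INSL3-KO in that fit, while Col4a3 to Col4a6 were called higher with and without it.

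Set against each other, the mutants gave 4 lower and 8 higher members of 42 in INSL3-KI relative to INSL3-KO (10.5% and 11.9% of all genes). Col8a1 (-2.93 ± 0.22, adjusted p = 4.7e-05), Col24a1 (-1.34 ± 0.30, adjusted p = 0.00655), Col11a1 (-1.12 ± 0.23, adjusted p = 0.00462) and Col6a6 (-1.09 ± 0.11, adjusted p = 0.000156) were lower in INSL3-KI. The 5 largest rises were Col23a1 (1.91 ± 0.15, adjusted p = 5.71e-05), Col9a2 (1.87 ± 0.23), Col7a1 (1.67 ± 0.091), Col9a3 (1.61 ± 0.19) and Col20a1 (1.47 ± 0.18), followed by Col4a6 (1.30 ± 0.066), Col18a1 (1.23 ± 0.079) and Col26a1 (1.14 ± 0.12). With the GC and length trend removed the split became 15 lower and 1 higher (6.6% and 7.3% of all genes). All 4 lower calls and, of the higher ones, that of Col23a1 held in both fits. The number of lower calls was 2 without INSL3-KI replicate 2 and 2 without any 1 INSL3-KO library. Over all genes the lower calls in those fits numbered 1383, 1401, 1327 and 1651, in that order, against 1650 with all libraries. Of the 10 fibrillar chains tested, Col24a1 and Col11a1 were those called. The chains of types I, III and V were not: Col1a1 had 0.48 ± 0.15, Col1a2 -0.49 ± 0.16, Col3a1 -0.58 ± 0.12, Col5a1 0.14 ± 0.12 and Col5a2 -0.96 ± 0.16.

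The ratio of the type I chains set INSL3-KO apart in P8 gubernaculum. The count ratio of Col1a1 to Col1a2, whose products assemble as 2 chains to 1, was 1.04 to 1.17 in WT, 1.06 to 1.11 in INSL3-KI and 0.516 to 0.583 in INSL3-KO gubernaculum at P8. The ratio of Col5a1 to Col5a2 was 1.23 to 1.66, 1.67 to 1.91 and 0.767 to 0.856. Both ratios put INSL3-KO apart from the other 2 genotypes, but its libraries are those of the second table, so table and genotype cannot be told apart there. Transcript GC was 58.9% for Col1a1 and 55.7% for Col1a2, and 58.0% for Col5a1 and 49.7% for Col5a2, and its part in the ratios was not tested. Within the second table, P23 testis had a Col1a1 to Col1a2 ratio of 0.487 to 0.523 in WT and 0.373 to 0.378 in INSL3-KO. INSL3-KI testis also lay below WT in this ratio at P8 (0.685 to 0.763 against 0.839 to 1.086) and P40 (0.396 to 0.503 against 0.53 to 0.67). At P23, across the tables, it lay above WT (0.642 to 0.722). INSL3-KO testis at P8 had 0.612 to 0.639. Col4a1 to Col4a2 behaved otherwise in testis: it was 1.60 to 1.73 in WT and 1.26 to 1.28 in INSL3-KI at P8, but 1.03 to 1.13 in WT and 1.53 to 1.55 in INSL3-KI at P40, so the mutant was below WT at the first age and above it at the last. These ratios are descriptions with no test.

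**Figure D3:**
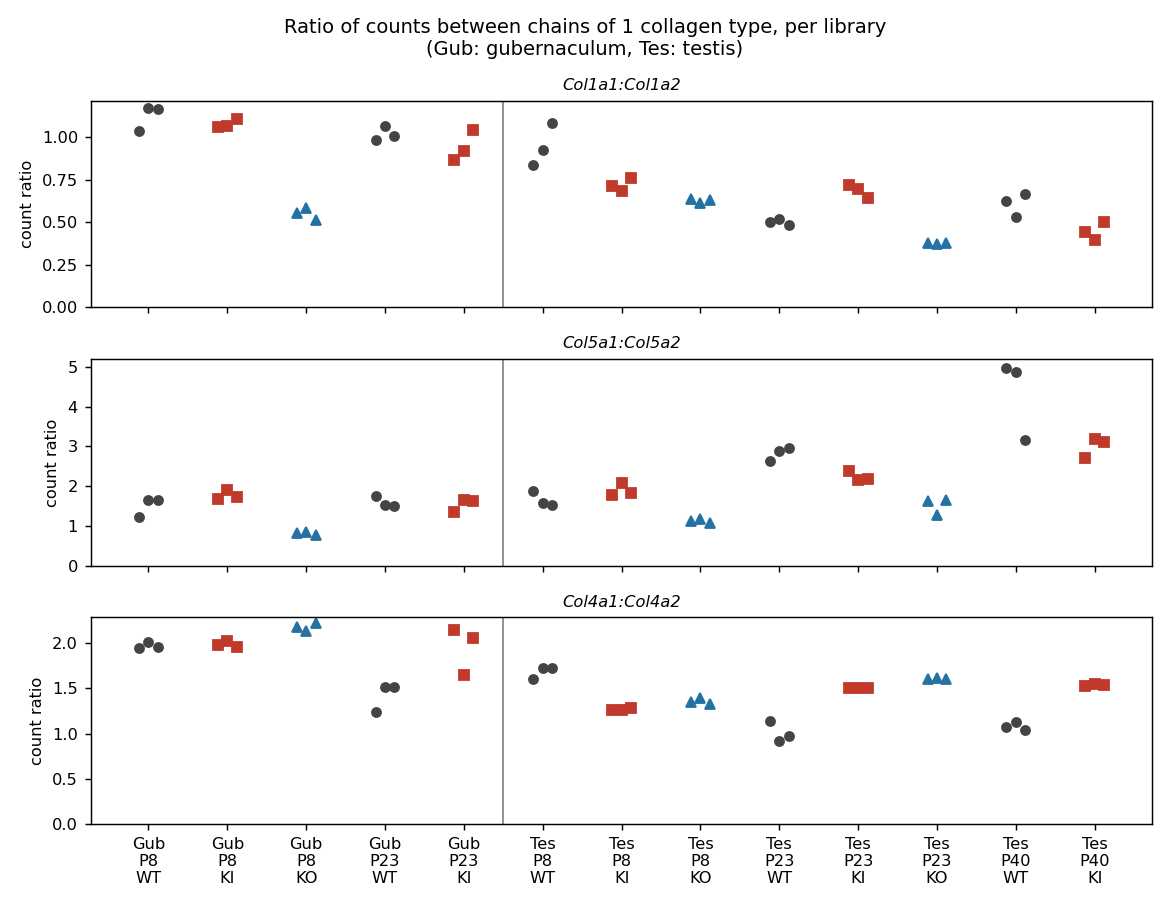
Ratio of counts between chains of 1 collagen type in each library (points; linear axes from 0), by tissue, age and genotype. INSL3-KO libraries are lowest for Col1a1:Col1a2 in P8 gubernaculum (0.516 to 0.583), and for Col4a1:Col4a2 in testis WT lies above both mutants at P8 and below them at P23.

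Genes that make collagen, and fewer of those that bind it, were called in gubernaculum at P8, where the shares of all genes were 9.7% lower and 14.4% higher in INSL3-KI and 15.2% and 15.5% in INSL3-KO. Of 37 genes for synthesis, secretion and crosslinking, 15 fell and none rose in INSL3-KI, with a median of -0.83. In INSL3-KO 11 fell and none rose, or 8 and none with the GC and length trend removed. Examples in INSL3-KI were Plod2, a lysyl hydroxylase (-1.71 ± 0.20), Lox, the lysyl oxidase that crosslinks fibrils (-1.39 ± 0.26), and P4ha1, a prolyl hydroxylase subunit (-1.40 ± 0.15). Of 21 proteoglycans and fibril regulators, 7 fell and 1 rose in INSL3-KI, among the falls Postn (-3.40 ± 0.18) and Ogn (-1.33 ± 0.12), and 6 of 20 fell and 1 rose in INSL3-KO, or 5 and none with the trend removed. The other lists did not lean 1 way in INSL3-KI. Of 9 collagen receptors tested, 2 fell (Mrc1 and Itga11) and 2 rose (Itga10 and Itga1). Among 12 laminin, nidogen and other partners of type IV collagen, 2 fell (Lamb1 and Nid2) and 1 rose (Lama1, 2.75 ± 0.37).

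At P23 no member of 40 tested was called in INSL3-KI gubernaculum in either direction, where 2.35% of all genes fell and 0.212% rose in edgeR's test. At an unadjusted p under 0.05 there were 17 (42.5%, against 33.6% of all genes). DESeq2 called 12 of 43 lower (27.9%, against 8.35% of all genes) and none higher (5.01% of all genes). Of the 12, the largest differences in edgeR were those of Col11a1 (-4.31 ± 0.66, adjusted p = 0.0156) and Col8a2 (-4.03 ± 0.59, adjusted p = 0.0137). Levels varied widely between the libraries, as did the epithelial, endothelial, smooth muscle and adipocyte marker sums of INSL3-KI, whose part was not tested. Col1a1 read 4537, 13854 and 10602 CPM in WT and 1028, 2461 and 4273 in INSL3-KI (-1.90 ± 0.76, adjusted p = 0.143), and Col3a1 5636, 14468 and 15067 and 1975, 5679 and 5794 (-1.39 ± 0.72, adjusted p = 0.231), so that INSL3-KI lay just below WT for Col1a1 and overlapped it for Col3a1. The other fixed members had -1.82 ± 0.71 for Col1a2, -1.52 ± 0.51 for Col5a1, -1.55 ± 0.49 for Col5a2, -1.86 ± 0.47 for Col6a1, -2.08 ± 0.54 for Col6a2, -1.08 ± 0.47 for Col6a3, -0.43 ± 0.54 for Col15a1, 0.94 ± 0.33 for Col18a1, 1.0 ± 0.56 for Col4a1 and 0.66 ± 0.56 for Col4a2. Without INSL3-KI replicate 2, the library rich in adipocyte markers, 2 of 41 members were called lower, Col8a1 and Col24a1. In that fit 499 of 15437 genes fell, against 355 of 15082 with all libraries. No member's INSL3-KI effect was called as different between P23 and P8 by edgeR (0.194% of all genes lower and 0.0874% higher). The 11 of 43 members at an unadjusted p under 0.05 (25.6%) were at the share of all genes (25.6%). DESeq2 called 4 lower (9.09%, against 4.47% of all genes), and without P23 INSL3-KI replicate 3 edgeR called 3 lower and 1 higher. In that last fit 212 of all genes were lower and 251 higher, against 31 and 14 with all libraries.

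In WT gubernaculum 5 of 41 members fell and 4 rose from P8 to P23 (4.34% and 6.17% of all genes). Col6a6 (-3.06 ± 0.30, adjusted p = 0.00106), Col26a1 (-2.73 ± 0.28, adjusted p = 0.0011), Col23a1 (-1.94 ± 0.37), Col24a1 (-1.78 ± 0.15) and Col27a1 (-1.74 ± 0.19) fell. Col4a3 (2.02 ± 0.36, adjusted p = 0.00648), Col11a1 (1.94 ± 0.37), Col8a1 (1.79 ± 0.35) and Col4a5 (1.08 ± 0.20) rose, but the number of rises was 1 without P8 replicate 1, 0 without P8 replicate 2 or 3 or P23 replicate 2, and 2 without P23 replicate 3. Over all genes the rises in those fits numbered 171, 150, 135, 599 and 803, in that order, against 922 with all libraries. WT gubernaculum and testis at P8 differed more: 21 of 44 members were higher and 9 lower in gubernaculum (14.1% and 14.3% of all genes). Col20a1 (4.48 ± 0.27, adjusted p = 1.49e-05), Col8a1 (4.11 ± 0.37, adjusted p = 8.73e-05), Col24a1 (3.52 ± 0.17) and Col14a1 (2.83 ± 0.63) led the higher ones, and Col19a1, with no counts in P8 WT testis, was at least 20.7-fold higher. That bound sets CPM scaled within gubernaculum against a floor scaled within testis, so it is approximate. Col6a4 (-6.15 ± 0.21, adjusted p = 1.41e-06), Col4a3 (-4.81 ± 0.35), Col4a4 (-4.69 ± 0.55), Col9a1 (-4.66 ± 0.79) and Col9a2 (-3.22 ± 0.40) were the lowest. Without gubernaculum replicate 1 the higher calls numbered 12, without replicate 2 or 3 they numbered 10, and without testis replicate 2 they numbered 6. Over all genes the higher calls in those fits numbered 1984, 1761, 1886 and 1613, in that order, against 2208 with all libraries.

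Collagen expression in WT testis fell steeply with age, and 1 small group of chains went the other way. From P8 to P40, 32 of 44 members fell and 6 rose, where 27.8% of all genes fell and 31.9% rose, and the member median was -2.79 against -0.03 over all genes. All 6 type IV chains, 9 of 11 fibrillar chains and both multiplexins fell. Col1a1 read 1786, 3102 and 6436 CPM at P8, 72.7, 75.2 and 70.9 at P23 and 83.8, 57.4 and 175 at P40, with a difference from P8 to P40 of -5.21 ± 0.65 (adjusted p = 0.00014). Col5a2 (-5.53 ± 0.55), Col6a6 (-5.52 ± 0.67) and Col5a3 (-5.40 ± 0.39) fell further, and Col9a2, at 27.98, 52.2 and 78.7 CPM at P8, had 0.175, 0 and 0 at P40. The 6 rises were those of Col2a1, the cartilage fibril chain (6.75 ± 0.29, adjusted p = 3.48e-07), the FACIT chains Col22a1 (5.31 ± 0.31, adjusted p = 1.86e-06), Col20a1 (4.97 ± 0.25, adjusted p = 8.06e-07) and Col9a1 (1.05 ± 0.28, adjusted p = 0.0095), Col28a1 (3.63 ± 0.71, adjusted p = 0.00181), and Col19a1, which had no counts at P8 and was at least 17.3-fold higher at P40. Per length Col22a1 was the highest member in WT testis at P23 (25.5 ± 6.79 FPKM) and P40 (26.9 ± 3.16), though the next, Col1a2, stood at 16.1 ± 0.123 and 20.7 ± 11.1. Spermatocyte and spermatid markers summed to 59.7 to 99.7 CPM in WT at P8, 25118 to 27188 at P23 and 16565 to 19880.4 at P40, with all 14 rising. Fibroblast markers summed to 1174 to 1890.2, 119 to 123 and 119 to 178 at the same ages, with 10 of 12 falling from P8 to P40. Their part in the collagen changes was not tested.

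At P8 the mutant testes lay below WT. In INSL3-KI 5 of 43 members fell and none rose (3.25% and 3.03% of all genes): Col6a6 (-3.01 ± 0.49, adjusted p = 0.00764), Col25a1 (-1.94 ± 0.27, adjusted p = 0.00546), Col26a1 (-1.59 ± 0.26, adjusted p = 0.00734), Col4a1 (-1.41 ± 0.17, adjusted p = 0.0043) and Col4a2 (-1.0 ± 0.15, adjusted p = 0.00593). The member median was -1.41 against 0.00 over all genes, and 37 members had an unadjusted p under 0.05 (86%, against 48% of all genes). Col4a1 read 1216, 1447 and 1748 CPM in WT and 543, 461 and 577 in INSL3-KI, with no overlap. Col1a1 read 1786, 3102 and 6436 and 1053, 725 and 1190.1, without overlap but with a spread in WT that left it uncalled (-1.86 ± 0.47, adjusted p = 0.0252). The count of falls depended on single libraries: leaving out WT replicate 1 gave 13, and leaving out WT replicate 2 or 3 or INSL3-KI replicate 1 or 3 gave 0. In the fits that gave 0, calls ended over nearly all genes as well. There 0, 1, 1 and 3 genes fell, in that order, against 511 with all libraries. In the fit that gave 13, 497 of all genes fell. DESeq2 called 24 of 44 lower (54.5%, against 7.41% of all genes) and 3 higher (6.82%, against 6.61%). The other fixed members had -1.41 ± 0.38 for Col1a2, -1.63 ± 0.45 for Col3a1, -1.81 ± 0.36 for Col5a1, -2.04 ± 0.44 for Col5a2, -1.47 ± 0.29 for Col6a1, -1.77 ± 0.36 for Col6a2, -1.73 ± 0.41 for Col6a3, -1.25 ± 0.33 for Col15a1 and -0.25 ± 0.08 for Col18a1, none of them called.

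In the P8 testis libraries labelled INSL3-KO, which still held Insl3 reads, 21 of 43 members fell and none rose (48.8%, against 8.37% and 5.44% of all genes). At an unadjusted p under 0.05 there were 36 (83.7%, against 59.6% of all genes), and DESeq2 called 22 lower (50%, against 9.16%) and none higher (6.24% of all genes). Col6a6 (-2.76 ± 0.56, adjusted p = 0.00482), Col13a1 (-2.23 ± 0.15, adjusted p = 4.68e-05), Col5a3 (-2.09 ± 0.28, adjusted p = 0.000777), Col5a1 (-2.07 ± 0.31, adjusted p = 0.00122) and Col16a1 (-2.05 ± 0.36, adjusted p = 0.00248) fell furthest. Col1a1 (-1.78 ± 0.41), Col4a1 (-1.63 ± 0.13), Col4a2 (-1.31 ± 0.11), Col5a2 (-1.56 ± 0.37), Col6a1 (-1.22 ± 0.24), Col6a2 (-1.42 ± 0.30), Col6a3 (-1.51 ± 0.36) and Col15a1 (-1.55 ± 0.31) were called as well. Col1a2 (-1.12 ± 0.33), Col3a1 (-1.29 ± 0.38) and Col18a1 (-0.79 ± 0.058) were not. This comparison runs across the tables, with a slope of -0.356 per 10 percentage points of GC, and with the GC and length trend removed 3 members fell (Col13a1, Col23a1 and Col26a1), 6.98% against 5.45% of all genes. The count was also 9 without WT replicate 2 or INSL3-KO replicate 2 and 8 without INSL3-KO replicate 1 or 3. Over all genes the falls in those fits numbered 1058, 1014, 1026 and 1045, in that order, against 1316 with all libraries. Fibroblast markers summed to 1174 to 1890.2 CPM in WT, 515 to 688 in INSL3-KI and 668 to 672 in INSL3-KO at P8, with 2 and 4 of 12 lower, and epithelial markers to 68.03 to 334, 54.9 to 253 and 209.5 to 221. Adipocyte markers summed to 243 to 1174, 31.5 to 188 and 78.7 to 81.75, and endothelial ones to 266 to 463, 127 to 191 and 156 to 165. Smooth muscle sums overlapped, at 1005 to 1522, 769 to 1016 and 1140 to 1183. WT replicate 3, the highest in adipocyte markers, also had the highest collagen share (3.50%). Of the 12 partners of type IV collagen, 4 fell in INSL3-KI and 9 in INSL3-KO, or 3 and 2 with the trend removed. The part of these cell types was not tested.

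At P23 more members were higher than lower in both mutants, though for INSL3-KO this split turned with the GC trend removed. In INSL3-KO testis, 19 of 42 members rose and 10 fell against WT of the same table (45.2% and 23.8%), where 31.1% of all genes rose and 33.4% fell. Every type IV chain rose, as did 5 of 6 type VI chains and both multiplexins. Col18a1 read 28.7, 29.1 and 26.7 CPM in WT, 194, 149 and 273 in INSL3-KI and 243, 265 and 254 in INSL3-KO, and Col3a1 read 124, 116 and 118, 573, 607 and 697 and 518, 507 and 502. WT lay below both mutants throughout. In INSL3-KO the largest rises were those of Col6a6 (4.17 ± 0.25, adjusted p = 7.19e-08), Col18a1 (3.23 ± 0.06, adjusted p = 1.18e-11), Col13a1 (3.23 ± 0.57, adjusted p = 0.000389), Col4a1 (2.25 ± 0.054, adjusted p = 6.61e-11) and Col3a1 (2.15 ± 0.044, adjusted p = 2.13e-11). Col1a1 (1.57 ± 0.048), Col1a2 (1.99 ± 0.039), Col5a2 (1.66 ± 0.11), Col4a2 (1.57 ± 0.056), Col6a1 (1.95 ± 0.049), Col6a2 (1.70 ± 0.061), Col6a3 (1.57 ± 0.094) and Col15a1 (1.13 ± 0.084) rose too, and Col5a1 (0.76 ± 0.10) stayed under the fold threshold. With the GC and length trend removed 12 rose (28.6%, against 29.3% of all genes) and 18 fell (42.9%, against 35.2%), so that the rises were at the background. All 12 were among the 19, and the 10 first falls were kept.

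The falls in INSL3-KO testis at P23 took in 5 of the 6 chains that rose with age in WT, all but Col28a1. Col2a1 read 77.3, 82.8 and 79.8 CPM in WT and 1.07, 0.736 and 0.943 in INSL3-KO (-6.39 ± 0.11, adjusted p = 7.08e-12). Col20a1 read 48.4, 61.6 and 61.1 and 0.267, 0.322 and 0.604 (-7.08 ± 0.21, adjusted p = 2.89e-10), and Col22a1 138, 187 and 188 and 4.75, 4.92 and 4.98 (-5.07 ± 0.14, adjusted p = 1.64e-10). None of these overlapped. Col9a1 had -5.10 ± 0.58 (adjusted p = 1.41e-05), and Col19a1, at 3 or fewer counts in each INSL3-KO library, was at least 18.98-fold lower. Spermatocyte and spermatid markers summed to 3217 to 7324 CPM in INSL3-KI and 189.9 to 202 in INSL3-KO, with 6 and 14 of 14 lower than in WT. Sertoli cell markers summed to 2446 to 2524 in WT, 2402 to 6183 in INSL3-KI and 11198 to 11474 in INSL3-KO, with 3 and 11 of 11 higher. Fibroblast markers summed to 119 to 123, 266 to 473 and 629 to 654, with 5 and 9 of 12 higher. The part of any of them in the collagen changes was not tested.

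INSL3-KI testis at P23 gave 18 rises and 2 falls among 43 members (41.9% and 4.65%, against 8.81% and 11.8% of all genes), across the tables. The largest rises were Col9a2 (5.12 ± 0.89, from 0, 0.163 and 0 CPM in WT), Col18a1 (2.89 ± 0.25, adjusted p = 0.000643), Col1a1 (2.43 ± 0.14, adjusted p = 0.000244), Col3a1 (2.41 ± 0.16, adjusted p = 0.000309) and Col4a1 (2.39 ± 0.19, adjusted p = 0.000482). Col1a2 (1.99 ± 0.16), Col5a1 (1.67 ± 0.13), Col5a2 (2.01 ± 0.16), Col4a2 (1.81 ± 0.18), Col6a1 (1.71 ± 0.13), Col6a2 (1.84 ± 0.12), Col6a3 (1.98 ± 0.11) and Col15a1 (1.03 ± 0.20) rose as well. Col20a1 (-2.60 ± 0.36, adjusted p = 0.00266) and Col9a3 (-1.61 ± 0.29, adjusted p = 0.00614) fell. Col2a1 differed from the INSL3-KO case: it read 83.3, 79.9 and 29.1 CPM, so replicates 1 and 2 lay within or beside the WT range and replicate 3 below it (-0.31 ± 0.37, adjusted p = 0.507). Replicate 3 was also the library with the lowest spermatocyte and spermatid sum, 3217 against 6975 and 7324. The slope over GC was 0.341, and with the trend removed 10 members rose and 6 fell, the 10 all among the 18 (23.3% and 14%, against 4.01% and 9.74% of all genes). The rises numbered 11 without any 1 of the WT libraries, where 103, 90 and 103 of all genes rose. The falls numbered 0 without any 1 WT library or INSL3-KI replicate 1 and 4 without INSL3-KI replicate 3. Over all genes the falls in those fits numbered 313, 282, 307, 460 and 2661, in that order, against 1966 with all libraries.

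At P40 INSL3-KI testis had 8 rises and 8 falls among 42 members (19% each), where 25.6% of all genes rose and 22.1% fell, so that neither share was above the background. Col18a1 (2.99 ± 0.33, adjusted p = 0.00054), Col6a6 (2.71 ± 0.55, adjusted p = 0.00504), Col4a6 (2.10 ± 0.27, adjusted p = 0.000849), Col4a1 (1.84 ± 0.32, adjusted p = 0.00274) and Col6a1 (1.63 ± 0.33, adjusted p = 0.00501) rose most, and Col15a1 rose with 1.44 ± 0.29. Fibrillar chains were not called, with 1.0 ± 0.47 for Col1a1, 1.47 ± 0.40 for Col1a2, 1.87 ± 0.46 for Col3a1, 0.61 ± 0.28 for Col5a1 and 1.01 ± 0.38 for Col5a2, nor were Col4a2 (1.31 ± 0.33), Col6a2 (1.28 ± 0.45) and Col6a3 (1.33 ± 0.40). Col1a1 read 83.8, 57.4 and 175 CPM in WT and 153, 176 and 279 in INSL3-KI, overlapping through WT replicate 3. The rises numbered 14 when WT replicate 3 was left out, 2 when WT replicate 1 or 2 was, and 4 when INSL3-KI replicate 2 or 3 was. Over all genes the rises in those fits numbered 4203, 3320, 3355, 3477 and 3502, in that order, against 4264 with all libraries. The 5 largest falls were Col19a1, which had no counts in the knock-in and was lower by at least 16.2-fold, Col22a1 (-4.68 ± 0.18, adjusted p = 3.46e-05), Col9a1 (-3.94 ± 0.76, adjusted p = 0.00397), Col20a1 (-3.92 ± 0.47, adjusted p = 0.000674) and Col26a1 (-2.75 ± 0.23, adjusted p = 0.000309). Without any 1 WT library the falls numbered 4 or 5, where 2268, 2291 and 2643 of all genes fell, against 3690 with all libraries. Col2a1 read 123, 127 and 93.2 CPM in WT and 29.4, 3.10 and 3.87 in INSL3-KI (-3.22 ± 0.90, adjusted p = 0.0172), all below WT but not called. INSL3-KI replicate 1, the highest of these 3, was also the one with a spermatocyte and spermatid sum of 3250 against 564 and 512, where WT had 16565 to 19880.4, and 8 of those 14 markers were lower. Sertoli cell markers summed to 1959 to 2222 in WT and 6285 to 9047 in INSL3-KI, with 11 of 11 higher. Fibroblast markers summed to 119 to 178 in WT and 455 to 633 in INSL3-KI, with 5 of 12 higher. Their part was not tested. With the GC and length trend removed 5 rose (11.9%, against 24.2% of all genes) and 11 fell (26.2%, against 23.7%).

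**Figure D4:**
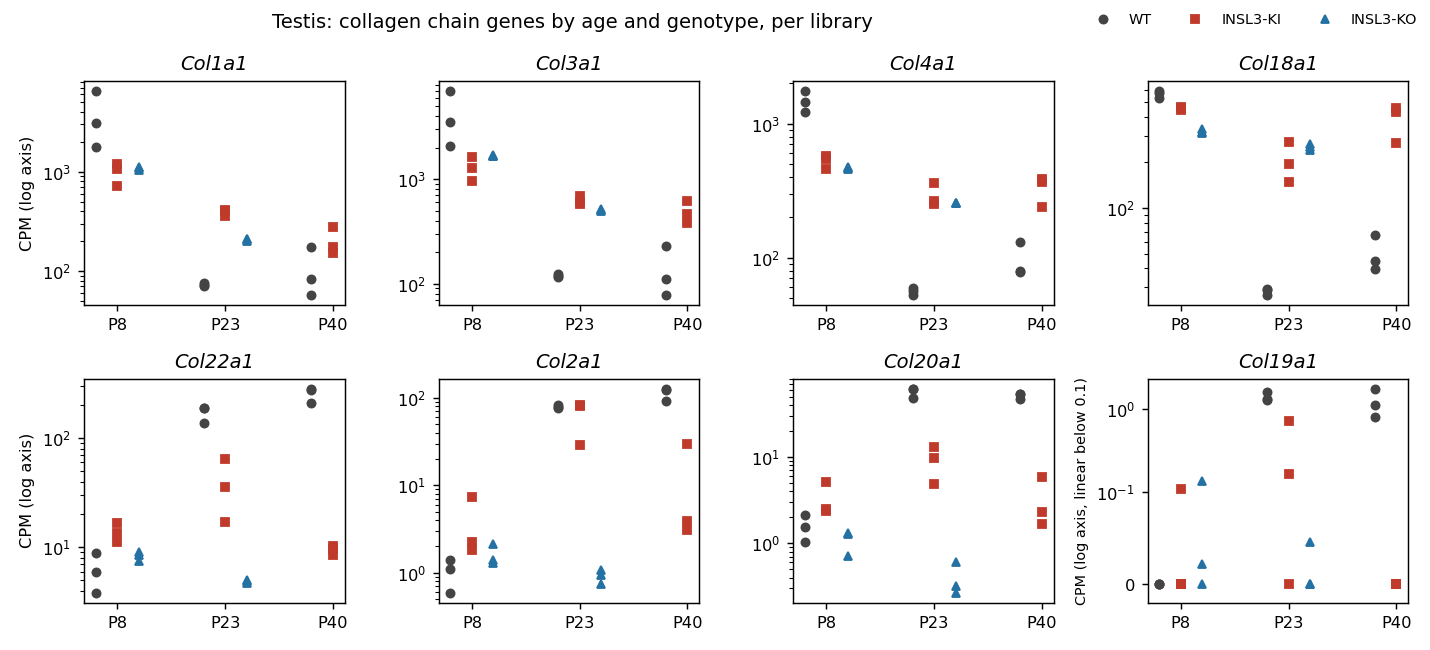
CPM of 8 collagen chain genes in testis at P8, P23 and P40 for WT, INSL3-KI and INSL3-KO, 1 point a library, on log axes (for Col19a1 linear below 0.1). In the upper panels mutants lie below WT at P8 and above it at P23, and in the lower panels Col22a1, Col2a1, Col20a1 and Col19a1 rise with age in WT and lie below WT in INSL3-KO at P23 and in INSL3-KI at P40.

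Whether the INSL3-KI effect in testis changed between P8 and P40 was tested as the difference between its values at the 2 ages, which does not test whether its sign turned. Col4a1 was called at both ages, lower at P8 and higher at P40, as was Col6a6, and no fibrillar chain was called at either. Of 44 members, 19 had a higher and 5 a lower effect at P40 (43.2% and 11.4%, against 23.2% and 22.5% of all genes). Col6a6 (5.65 ± 0.82, adjusted p = 0.000213), Col3a1 (3.42 ± 0.71, adjusted p = 0.0018), Col4a6 (3.19 ± 0.47, adjusted p = 0.000238), Col4a1 (3.18 ± 0.39, adjusted p = 8.53e-05) and Col18a1 (3.17 ± 0.35, adjusted p = 4.69e-05) led the first group. Col22a1 (-5.99 ± 0.41, adjusted p = 3.98e-06), Col2a1 (-5.25 ± 1.18, adjusted p = 0.00285), Col20a1 (-5.15 ± 0.64, adjusted p = 8.75e-05), Col28a1 (-3.26 ± 0.88) and Col19a1 made up the second, whose number was 3 without P8 WT replicate 2, without any 1 P40 WT library or without P40 INSL3-KI replicate 2 or 3. Over all genes the lower effects in those fits numbered 2824 to 3419, against 3902 with all libraries. Of 36 genes that make and crosslink collagen, 14 rose and 2 fell in INSL3-KI at P23, where 8.81% of all genes rose. In INSL3-KO at P23 22 rose and 2 fell (31.1% of all genes rose), and in INSL3-KI at P40 19 rose and 2 fell (25.6%). Of 12 partners of type IV collagen, 9, 10 and 10 rose in the same comparisons and none fell. With the GC and length trend removed the rises numbered 7, 16 and 13 for the first list and 6, 5 and 5 for the partners.

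Across the 8 comparisons of a mutant with WT, 18 members were called in both directions, among them Col1a1, Col3a1, Col5a1, Col5a2, Col4a1, Col4a2 and Col6a1 to Col6a3, lower in at least 1 P8 comparison and higher in testis at P23 or P40. With the GC and length trend removed 10 members were called in both directions, and of those just named only Col3a1, Col5a2, Col4a1 and Col6a2. The share of all genes called in both directions was not counted, so neither number has a background. In INSL3-KO testis at P23, 33.4% of all genes fell and 31.1% rose. Comparisons of the 2 mutants at 1 age and tissue also share their WT libraries. Col26a1 was called in 6 of the 8 comparisons, always lower, and Col16a1 in 5, always lower. Col4a4 and Col4a5 were called in 5, always higher, and Col18a1 in 3, always higher. With the trend removed, the calls of Col16a1 in P8 INSL3-KO gubernaculum and testis were lost, as were those of Col4a4 in INSL3-KI testis at P23 and P40. All calls of Col26a1, Col4a5 and Col18a1 were kept. Col28a1, tested in all 8, was called in none. Col10a1 passed the filter on low counts in 2 and was called in neither.

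**Figure D5:**
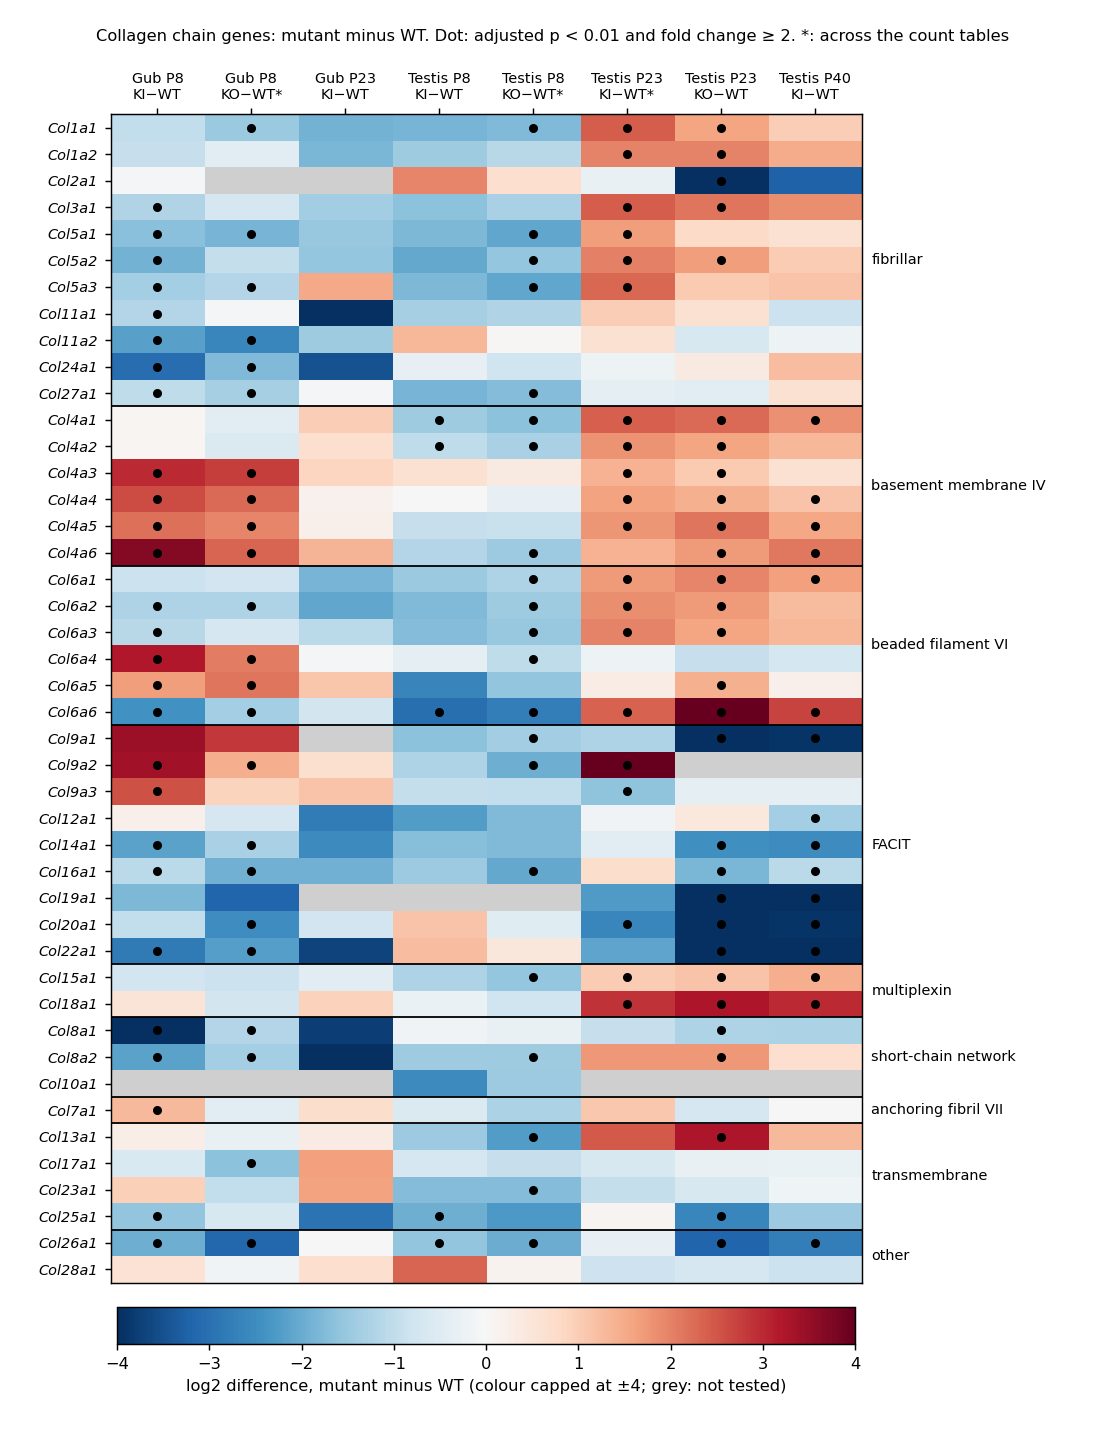
Difference of each of the 44 collagen chain genes between mutant and WT (log2, colour capped at 4 in either direction, grey for not tested), with members in rows by class and comparisons in columns, and a dot for those called (2-fold or more, adjusted p under 0.01). The chains of types I, III and V are blue in both tissues at P8 and red in testis at P23, Col4a3 to Col4a6 are red in P8 gubernaculum of both mutants, and Col19a1, Col20a1 and Col22a1 are blue in testis at P23 and P40.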

How the data were processed

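RNA libraries were made with a dual-mode mRNA kit and sequenced, and reads were aligned to GRCm38 with HISAT2, per the submitters' processing notes. The counting program and its use of strand are not given in the sources used here. Raw counts and FPKM of each gene were deposited by the authors in 2 tables, joined here on Ensembl identifier (44 of 44 members and 94.2 to 97.9% of each library's counts). Counts went to edgeR 4.0.16 (R 4.3.3; TMM, filterByExpr with a minimum count of 10, glmQLFit, glmQLFTest, 2-group fits, Benjamini-Hochberg over all genes tested), checked on simulated data. Apart from the limma alternative named next, FPKM only ranked members by their mean within a group. Alternatives used DESeq2 1.42.0, limma 3.58.1 on log2(FPKM + 1), library-size scaling, no filter, 1 fit a tissue, a replicate block, each library left out, and offsets for GC content and length from GENCODE transcripts. A fold against 3 or fewer counts in every library is a bound at 3 counts a library. Members and lists were chosen with earlier results of these data known. Named were 12 fixed members, in each comparison the 5 called ones of largest difference in each direction, and members called in opposite directions. Counting intervals and floors cover counting error only.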

Additional observations from a re-analysis of the deposited data

Results flagged for a closer look

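The INSL3-KI effect in testis differed between P40 and P8 for 24 members by edgeR's interaction test, with a difference of 2-fold or more and an adjusted p under 0.01. Of 44 members, 43.2% were higher and 11.4% lower, where 23.2% of all genes were higher and 22.5% lower. At an unadjusted p under 0.05 the shares were 70.5% of the members and 69.8% of all genes. Values are the P40 difference between INSL3-KI and WT minus the P8 difference, on the log2 scale. It was negative for Col22a1 (-5.99), Col2a1 (-5.25), Col20a1 (-5.15) and Col28a1 (-3.26), and for Col19a1 (-12.2), whose value depends on the prior count because WT at P8 and INSL3-KI at P40 had no counts. It was positive for the type IV chains Col4a4 (1.07), Col4a2 (2.24), Col4a5 (2.39), Col4a1 (3.18) and Col4a6 (3.19), and for the fibrillar chains Col5a1 (2.35), Col27a1 (2.37), Col1a1 (2.79), Col1a2 (2.81), Col5a3 (2.84), Col5a2 (2.97) and Col3a1 (3.42). The type VI chains Col6a2 (2.97), Col6a3 (2.99), Col6a1 (3.03) and Col6a6 (5.65), the multiplexins Col15a1 (2.61) and Col18a1 (3.17) and the transmembrane chain Col13a1 (2.68) made up the rest. Spermatocyte and spermatid marker sums moved with the effect, and their part in it was not tested.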

How the results depend on the processing

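Counts of members called lower and higher moved by over 1.5 times as follows, and unless a cause is given it was not tested. In brackets are the numbers of all genes called the same way, in that fit and then in edgeR's 2-group fit. In P8 gubernaculum the INSL3-KI falls numbered 11 (1133, 1503) with library-size scaling and 10 (1198, 1503) in 1 fit of all groups of the tissue. With limma on FPKM they numbered 8 (882, 1503). The INSL3-KO falls numbered 8 (1927, 2374) in 1 fit and 2 (1781, 2374) with the GC and length trend removed. Its rises numbered 4 (1526, 2420) in 1 fit. For INSL3-KI against INSL3-KO the falls numbered 1 (1224, 1650) with library-size scaling, 0 (1112, 1650) in 1 fit and 15 (1032, 1650) with the trend removed. The rises numbered 2 (1204, 1865) and 1 (1142, 1865) in those last fits. At P23 the INSL3-KI falls numbered 12 (1397, 355) with DESeq2, 15 (1467, 355) in 1 fit and 2 (498, 355) with limma. In P8 testis the INSL3-KI falls numbered 24 (1135, 511) with DESeq2, 25 (1203, 511) in 1 fit and 3 (312, 511) with limma. The rises numbered 3 (1013, 476) with DESeq2 and 2 (958, 476) in 1 fit. The INSL3-KO falls numbered 3 (857, 1316) with the trend removed. At P23 the INSL3-KI falls numbered 1 (1450, 1966) with library-size scaling and 6 (1617, 1966) with the trend removed, and the rises there 10 (666, 1462). The INSL3-KO falls numbered 5 (3658, 5584) with limma and 18 (5884, 5584) with the trend removed, and the rises there 12 (4901, 5199). At P40 the falls numbered 5 (2631, 3690) with limma. The rises numbered 14 (6583, 4264) with library-size scaling, 14 (4360, 4264) in 1 fit, 13 (5209, 4264) with limma and 5 (4030, 4264) with the trend removed. In WT gubernaculum from P8 to P23 the falls numbered 9 (1165, 649) with DESeq2 and 2 (584, 649) in 1 fit. The rises numbered 7 (1417, 922) with DESeq2, 1 (722, 922) with library-size scaling, 2 (781, 922) in 1 fit and 0 (583, 922) with limma. From P8 to P40 in WT testis the rises numbered 3 (3514, 5388) with limma. For the change of the INSL3-KI effect with age, gubernaculum gave 4 (738, 31) lower with DESeq2 and 1 (302, 31) in 1 fit. Testis gave 3 (3191, 3902) lower with limma.

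With the trend removed 4 called members changed sign: Col27a1 (0.27) and Col5a3 (0.45) for INSL3-KO against WT, and Col18a1 (-0.19) and Col7a1 (-0.12) for INSL3-KI against INSL3-KO, all in P8 gubernaculum.

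With 1 library left out at a time, falls and rises ranged over 14 to 19 and 8 to 10 for INSL3-KI and 14 to 16 and 6 to 7 for INSL3-KO in P8 gubernaculum, 2 to 5 and 8 to 10 between the mutants, 0 to 2 and 0 to 0 at P23, 0 to 13 and 0 to 0 for INSL3-KI and 8 to 29 and 0 to 0 for INSL3-KO in P8 testis, 0 to 4 and 11 to 22 for INSL3-KI and 9 to 10 and 18 to 19 for INSL3-KO at P23, 4 to 10 and 2 to 14 at P40, 4 to 7 and 0 to 4 in WT gubernaculum with age, 28 to 32 and 5 to 6 in WT testis with age, 6 to 10 and 6 to 24 between WT tissues, and 0 to 3 and 0 to 1 in gubernaculum and 3 to 5 and 17 to 20 in testis for the change with age. These fits have fewer samples. Calls over all genes moved too, with 0 to 497 falls for INSL3-KI in P8 testis.

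Whether replicate numbers pair the samples is not given. No comparison had a correlation over 0.1 for all 3 numbers. For INSL3-KI against WT, numbers 2 and 3 had 0.345 and 0.464 in P23 gubernaculum, and numbers 1 and 3 had 0.233 and 0.336 in P8 testis. With 3 libraries a group these values cannot exclude pairing. With a replicate block P8 testis INSL3-KI had 0 falls, P23 testis INSL3-KI 1 fall and WT gubernaculum with age 0 rises, and the other counts stayed within 1.5 times. Over all genes the same counts with the block were 1, 1087 and 265. Of the named members' calls, the block kept 185 and lost 27. Limma was not run for the comparisons across the tables, which were normalized separately.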

Other observations

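Further chain ratios are given as values. The count ratio of Col3a1 to Col1a1 was 1.63 to 1.75 in WT, 1.37 to 1.55 in INSL3-KI and 2.80 to 3.15 in INSL3-KO gubernaculum at P8. In testis at P23 it was 1.55 to 1.70, 1.43 to 1.71 and 2.38 to 2.52, and at P40 1.31 to 1.36 in WT and 2.24 to 2.63 in INSL3-KI. The ratio of Col6a1 to Col6a2 was 0.860 to 0.916 in WT, 1.08 to 1.32 in INSL3-KI and 1.18 to 1.26 in INSL3-KO gubernaculum at P8, where WT did not overlap either mutant.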
